A study of Mus musculus with 12 samples.

Results

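The Tudor domain genes of germ granules analysed here were Tdrd1, Tdrd3, Tdrd5, Tdrd6, Tdrd7, Tdrd9, Tdrd12, Tdrkh, Rnf17 and Stk31. They were chosen by symbol, as the gene rows that carry these names in the 3 deposited tables of group means, and all 10 were found among 20981 genes. All samples came from testes of Mael-/- mice of strain C57BL/6 at about 3 months of age, and no sample of another genotype is part of these libraries. Mael encodes Maelstrom, a germ cell protein of the piRNA pathway, and the deletion is shared by every group, controls included. Extracts were brought to 10 mM EDTA, which takes ribosomes apart, and RNA from the whole extract is the TOTAL group. The INPUT group is RNA from pooled fractions 5 to 8 of a sucrose gradient of that extract. The IP group is RNA that an antibody against ORF1p, the RNA-binding protein of the LINE-1 retrotransposon, precipitated from this pool. The BO group is RNA that beads without antibody held from the same pool. The comparisons of IP with BO, INPUT and TOTAL ask which RNAs were enriched with ORF1p over carry-over on beads, over the fractionated pool and over the unfractionated extract.

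Each group had 3 biological replicates, 12 libraries in all, but the gene tables give a single value per group, the authors' mean of normalized counts. The tables give no value per library, and the authors' own statistics beside the means were not used, so gene values stand here without an error, no test was run, and the depth behind them is unknown. The repeat table of the same libraries does give values per library. In it, counting reads on repeats, between 1384904 and 2003193 reads were recovered per IP library and between 6021800 and 7282170 per TOTAL library. L1Md_A RNA, from a young LINE-1 family, measured 56029 to 95645 normalized counts in the IP libraries, against 14131 to 27258 in the other 9, so the groups did not overlap. Mael itself had a mean of 0.502 in BO and 0.650 in TOTAL and is listed at 0 in INPUT and IP.

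Tudor domains are small folds that bind methylated arginine or lysine. In germ cells, Tudor proteins bind the methylated arginines of PIWI proteins, the Argonautes that carry piRNAs, and hold them in cytoplasmic granules beside mitochondria (the intermitochondrial cement) and in the chromatoid body of spermatids. piRNAs silence retrotransposons, LINE-1 among them. TDRD3 differs from the others in being made in most tissues, where it works with the topoisomerase TOP3B and enters stress granules.

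A run of codons for aspartate, then tyrosine or phenylalanine, then glycine lies in a conserved stretch of many Tudor domains, and it is shown here as a feature that most of the members share. The members were chosen as Tudor domain genes, so a share above that of all genes is built into the choice. The run was found in the longest coding sequence of 9 of the 10 genes, against 11.2% of 17720 genes with a coding sequence, not matched for length. With an asparagine codon directly after it, the run was found in 7 of the 10, against 0.547% of all those genes. Counted with or without that asparagine, Tdrd6 held 5 runs, Tdrd1 4, Rnf17 3, Tdrd7 2, and Tdrd3, Tdrd5, Tdrd9, Tdrkh and Stk31 1 each. Tdrd12 held none, which says only that these codons are not in its annotated coding sequence. The first run of each gene follows, read from GENCODE M21 transcripts on GRCm38 (mm10), 5′ to 3′, with up to 24 bases of the same exon on each side and with the 3 codons in capitals.
Tdrd1 (chr19:56843187-56843243, plus strand, exon 8 of 25): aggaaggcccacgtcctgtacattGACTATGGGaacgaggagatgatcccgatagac
Tdrd3 (chr14:87511684-87511740, plus strand, exon 12 of 14): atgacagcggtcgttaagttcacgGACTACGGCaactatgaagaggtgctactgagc
Tdrd5 (chr1:156277315-156277371, minus strand, exon 10 of 18): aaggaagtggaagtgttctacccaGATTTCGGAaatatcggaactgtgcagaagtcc
Tdrd6 (chr17:43629088-43629144, minus strand, exon 1 of 5): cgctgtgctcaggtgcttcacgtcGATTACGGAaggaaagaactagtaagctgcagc
Tdrd7 (chr4:46010790-46010834, plus strand, exon 9 of 17): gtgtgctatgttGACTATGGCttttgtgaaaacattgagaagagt
Tdrd9 (chr12:112041662-112041706, plus strand, exon 27 of 36): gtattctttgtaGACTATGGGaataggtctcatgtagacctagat
Tdrkh (chr3:94428245-94428301, plus strand, exon 8 of 14): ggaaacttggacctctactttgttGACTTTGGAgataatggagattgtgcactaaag
Rnf17 (chr14:56462012-56462068, plus strand, exon 13 of 37): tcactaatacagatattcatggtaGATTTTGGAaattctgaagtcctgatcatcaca
Stk31 (chr6:49409053-49409103, plus strand, exon 6 of 24): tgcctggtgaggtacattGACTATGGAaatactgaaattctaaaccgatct

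In these testes the 10 genes were not equally abundant, and their order in the whole extract was compared per length, as the TOTAL mean divided by the kilobases of the longest annotated transcript. Stk31 was highest at 590 normalized counts per kb, followed by Rnf17 at 515 and Tdrd7 at 449. Tdrd1, Tdrd9, Tdrd3 and Tdrd5 lay between 276 and 128. Tdrd12 and Tdrkh measured 86.7 and 83.2, and Tdrd6 was lowest at 18.5. The annotated transcript of Tdrd12, 3651 nt, has no untranslated bases, whereas that of Tdrkh, 5692 nt, has 3893 nt after its coding sequence. The order of these genes per kb rests on those lengths, which the length classes further on also use. Without values per library it cannot be said which neighbours in the whole order differ beyond their spread. In IP, on the same scale, Stk31 (2349), Rnf17 (1965) and Tdrd7 (1755) again stood first and Tdrd6 (44.1) last. Tdrd5 moved from the seventh place in TOTAL to the fourth in IP, at 843 per kb.

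The summed means of the 10 genes made up 0.0685% of the summed means of all genes in TOTAL, 0.0809% in INPUT, 0.0591% in BO and 0.167% in IP. This share does not depend on how the groups were scaled to each other. It was highest in IP and lowest on beads alone.

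**Figure D1:**
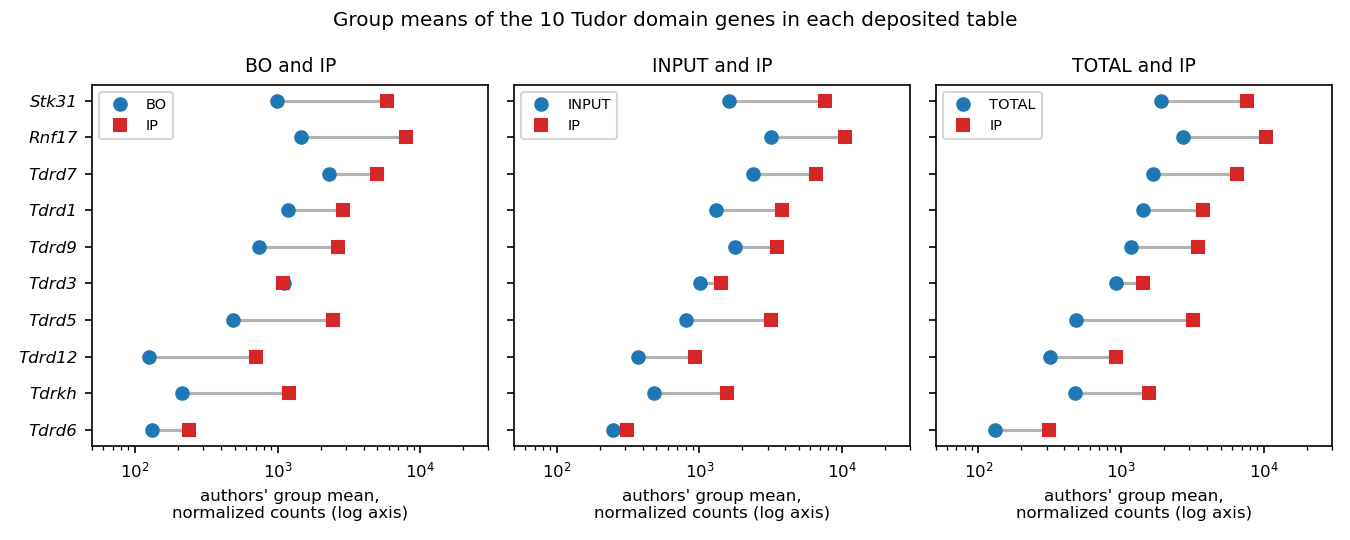
Group means of the 10 Tudor domain genes, with 1 panel for each deposited table. The horizontal axis gives the authors' mean of normalized counts on a log axis, circles stand for BO, INPUT or TOTAL, and squares for IP. Apart from Tdrd3 in the panel with BO, the IP mean lies to the right of the other group in each row as the tables are scaled; for Tdrd3 and Tdrd6 over INPUT this order turned under other scalings.

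For each comparison a log2 ratio was taken as log2 of the IP mean plus 1 over the other group's mean plus 1, and a gene was counted as higher in IP from a ratio of 2-fold. Genes with a mean of at least 10 over both groups of a table served as the background, and all 10 Tudor domain genes passed this filter in each table. Over INPUT, 7 of the 10 were at least 2-fold higher in IP, where 20.5% of the 14400 background genes were, and their median log2 ratio was 1.4975 against 0.15. Over TOTAL, 9 of the 10 were at least 2-fold higher, where 20.4% of 14666 genes were, and the medians were 1.64 and -0.03. Over BO, 8 of the 10 were at least 2-fold higher, but so were 43.9% of 13634 genes. The whole BO comparison was shifted, since its median gene had a log2 ratio of 0.81, and relative to that gene 6 of the 10 were at least 2-fold higher, against 18.3% of genes. None of the 10 was 2-fold lower in IP in any of these 3 comparisons, where 11.2% (BO), 14.6% (INPUT) and 26.2% (TOTAL) of background genes were. The 3 comparisons share the same IP libraries and are not independent of each other. The 10 genes were listed with earlier results of these data known, so the counts describe the list and do not test it.

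**Figure D2:**
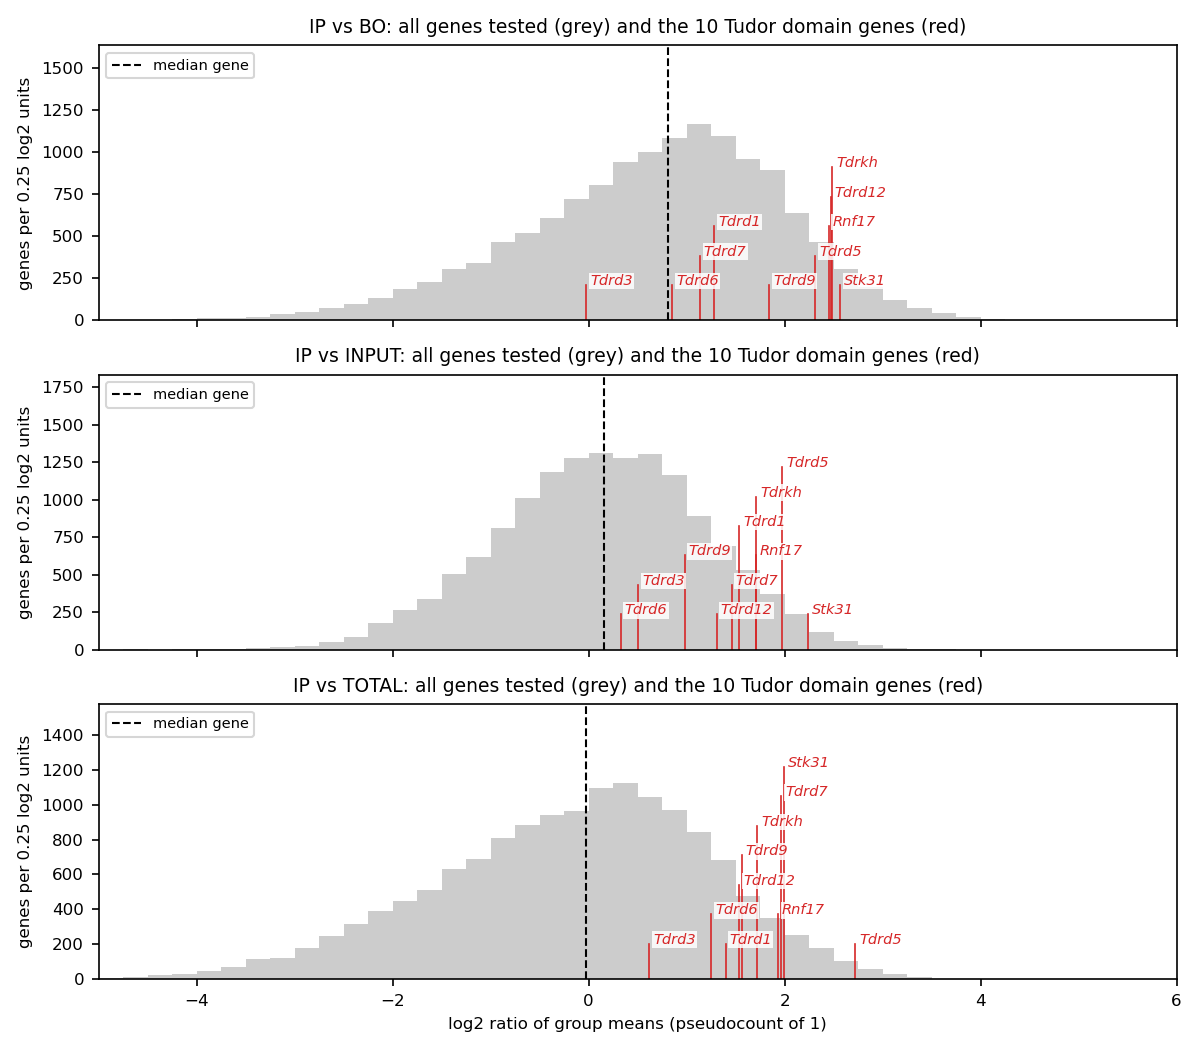
Log2 ratios of IP over BO (top), INPUT (middle) and TOTAL (bottom). Grey bars count the background genes in steps of 0.25, the dashed line is the median gene, and red lines mark the 10 Tudor domain genes, their heights serving only to separate the names. Over INPUT and TOTAL all 10 lie to the right of the median gene, and over BO Tdrd3 lies to its left at -0.02.

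Over INPUT, Stk31, Tdrd5, Tdrkh and Rnf17 had the highest ratios of the 10. Stk31 (chr6:49395604-49469501) encodes a protein with a Tudor domain and a kinase-like domain that is made in testis. Its means were 983 in BO and 5830 in IP in the first table, 1618 in INPUT and 7643 in IP in the second, and 1908 in TOTAL and 7605 in IP in the third. The IP mean was thus 5.93-fold that of BO, 4.72-fold that of INPUT and 3.98-fold that of TOTAL. Over INPUT this was the highest ratio of the 10, at the 98.4th percentile of the background genes.

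Rnf17 (chr14:56402581-56525032) encodes a RING finger protein with several Tudor domains that forms granules of its own in spermatocytes. Its IP mean was 10395 against 3182 in INPUT, 10344 against 2712 in TOTAL, and 7929 against 1450 in BO. These are ratios of 3.27, 3.81 and 5.46. Its percentiles among background genes, 93.6 over INPUT, 95.0 over TOTAL and 93.8 over BO, were close to each other.

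Tdrkh (chr3:94413273-94434668) encodes a Tudor protein with KH domains that is anchored on mitochondria and takes part in the trimming of piRNA precursors. Its means were 481 in INPUT and 1572 in IP, 474 in TOTAL and 1563 in IP, and 213 in BO and 1199 in IP. The ratios over INPUT and TOTAL were nearly the same, 3.27 and 3.30, and that over BO was 5.61. Exons of Tdrkh overlap those of Oaz3, a spermatid gene on the other strand. Whether counting used strand is not given in the sources used here. The means of Oaz3 were 24.2 in TOTAL and 15.6 in IP, 8.21 in INPUT and 15.7 in IP, and 1.58 in BO and 12.002 in IP, each pair from its own table. Whether the overlap affected the values of Tdrkh was not tested.

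Tdrd5 (chr1:156255296-156303664) encodes a protein with LOTUS and Tudor domains that is needed for retrotransposon silencing and for pachytene piRNAs. It had the highest ratio of the 10 over TOTAL, with means of 481 and 3171 in IP, a 6.58-fold difference at percentile 99.2. Over INPUT, with means of 810 and 3184, the ratio was 3.93, and over BO, with 488 and 2429, it was 4.97. Exons of Tdrd5 overlap those of an annotated antisense gene, which is not among the 20981 genes and was not analysed here.

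Tdrd1, Tdrd7, Tdrd12 and Tdrd9 made up the middle of the group over INPUT, and the order of the 10 depended on the reference. Tdrd1 (chr19:56826209-56870012) encodes a protein of the intermitochondrial cement that binds the PIWI protein MILI. Its means were 1301 in INPUT and 3773 in IP (2.90-fold), 1429 in TOTAL and 3766 in IP (2.63-fold), and 1184 in BO and 2880 in IP (2.43-fold). The last of these lay at the 65.7th percentile only, as against the 91.0th over INPUT.

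Tdrd7 (chr4:45965334-46034761), whose product belongs to the chromatoid body and also has a role in the lens, showed the same contrast more strongly. Its mean on beads alone was 2272, and the IP mean of 4993 was 2.20-fold that, at the 60.8th percentile. Over INPUT (2380 and 6545) and TOTAL (1670 and 6522) its ratios were 2.75 and 3.90. Relative to the median gene of the BO comparison, the log2 ratio was 0.325 for Tdrd7 and 0.47 for Tdrd1. With groups scaled to the sum of gene means the values were 0.85 and 0.99, and scaled to the upper quartile 0.46 and 0.61. Under these scalings neither gene reached 2-fold over BO.

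Tdrd12 and Tdrd9 encode RNA helicase-like Tudor proteins that work with the PIWI protein MIWI2 in fetal germ cells. Tdrd12 (chr7:35469098-35537745) was low on beads, with a mean of 126 in BO and 704 in IP, a ratio of 5.54. Against INPUT it was 373 and 924, a ratio of 2.47, and against TOTAL 317 and 919, a ratio of 2.90. For Tdrd9 (chr12:111971559-112068854) the means were 738 in BO and 2654 in IP, a ratio of 3.59. Over TOTAL (1173 and 3468) its ratio was 2.96. Over INPUT (1765 and 3479) it was 1.97, just under 2-fold, at the 78.8th percentile.

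Tdrd3 and Tdrd6 stood lowest. Tdrd3 (chr14:87416639-87545504), the widely expressed member, had means of 1106 in BO and 1088 in IP, a log2 ratio of -0.02 at the 27.6th percentile. Its IP mean was 1.42-fold that of INPUT (1006 and 1426) and 1.53-fold that of TOTAL (926 and 1420). Relative to the median gene, its log2 ratio was -0.83 over BO, 0.35 over INPUT and 0.64 over TOTAL. With each group scaled to the sum of its gene means, its log2 ratio over INPUT turned from 0.50 to -0.03.

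Tdrd6 (chr17:43615335-43630299) encodes a large protein of the chromatoid body with many Tudor domains and has most of its coding sequence in a single exon. Its means were 249 in INPUT and 312 in IP, a ratio of 1.256, 130 in TOTAL and 311 in IP, a ratio of 2.38, and 132 in BO and 238 in IP, a ratio of 1.80. The log2 ratio over INPUT was 0.33 as deposited, -0.20 with groups scaled to the sum of gene means and -0.08 with groups scaled to their upper quartile, so its direction over INPUT depended on the scaling.

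INPUT and TOTAL, and BO and INPUT, were set beside each other through IP, as differences of the log2 ratios above. No deposited gene table holds both groups of either pair. From TOTAL to INPUT, Tdrd6 differed most, with a log2 ratio of 0.92, followed by Tdrd5 at 0.75, Tdrd9 at 0.58 and Tdrd7 at 0.51. At the other end lay Stk31 at -0.24 and Tdrd1 at -0.14, the latter turning to 0.04 when the ratios of IP over TOTAL and over INPUT were each centred on the median gene of their own table first. The median of the 10 was 0.23, and that of the 13566 genes that passed the filter in each table was -0.12. None of the 10 reached 2-fold, where 2.33% of those genes were at least 2-fold higher in INPUT and 16.4% lower. Relative to the median gene of this comparison Tdrd6 passed 2-fold, at 1.04, as did 4.39% of genes upwards, and Tdrd1 lay at -0.01.

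On beads alone relative to INPUT, the members spread more widely, from a log2 ratio of -1.16 for Tdrd12 and -0.87 for Tdrd9 to 0.53 for Tdrd3. All genes also spread more widely here, with quartiles of -1.27 and 0.25, against -0.71 and 0.35 from TOTAL to INPUT. Tdrkh and Rnf17 lay at -0.78 and -0.74, while Tdrd7 and Tdrd1 lay at 0.32 and 0.25. Tdrd6, Tdrd5 and Stk31 lay at -0.52, -0.34 and -0.33 and came to 0.03, 0.21 and 0.22 relative to the median gene of this comparison, or 0.14, 0.32 and 0.33 when each table was centred on its own median gene first. Of the 10, only Tdrd12 passed 2-fold, where 33.3% of genes were at least 2-fold lower on beads and 9.30% higher. Relative to the median gene of this comparison Tdrd12 lay at -0.62 and Tdrd3 passed 2-fold at 1.07, as did 19.6% of genes upwards. The median of the 10 was -0.43, beside -0.55 for all genes. The genes that beads retained most relative to INPUT, Tdrd3, Tdrd7 and Tdrd1, were among those with the lower ratios of IP over BO. Both ratios use the BO mean and are not independent. Tdrd6, at -0.52 here, also had a low log2 ratio of IP over BO, 0.85.

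**Figure D3:**
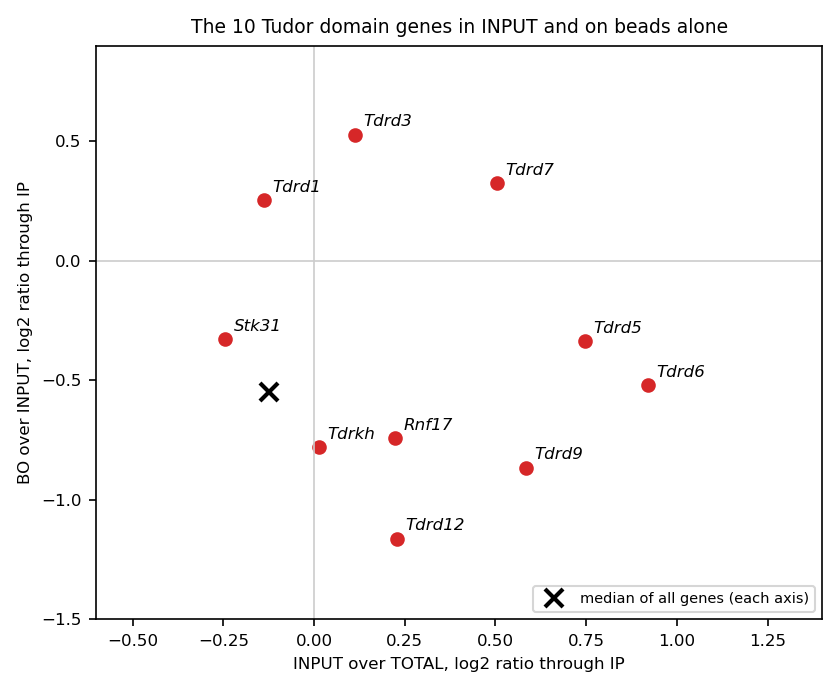
The 10 Tudor domain genes by their log2 ratio of INPUT over TOTAL (horizontal axis) and of BO over INPUT (vertical axis), each taken through IP from separate tables. The cross marks the median of all genes on each axis, at -0.12 and -0.55. Tdrd6 lies farthest right at 0.92, Tdrd3 highest at 0.53 and Tdrd12 lowest at -1.16.

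Transcript length moved with the ratios in 2 of the 3 comparisons. Across genes, which are not independent replicates, Spearman's rho between the log2 ratio and the length of the longest transcript was 0.42 over TOTAL (13994 genes with a length), 0.06 over INPUT (13744 genes) and -0.37 over BO (13025 genes). The 10 genes have a median length of 4998 nt, against 3385 nt for the background genes of the TOTAL comparison. Relative to the median gene of their own length class, with genes split into 20 classes of equal size, the median log2 ratio of the 10 was 1.36 over TOTAL, 1.30 over INPUT and 1.42 over BO. In that setting, chosen after the data were seen, 7 of the 10 were at least 2-fold higher over TOTAL, 7 over INPUT and 6 over BO, beside 19.0%, 16.7% and 16.8% of genes with a length. Tdrd6, the longest at 7059 nt, came to 0.58 over TOTAL, 0.10 over INPUT and 0.93 over BO. GC content was lower in the 10 genes, with a median of 45.9% against 49.7%, and its rho with the log2 ratio was -0.16 over TOTAL, -0.27 over INPUT and 0.18 over BO. The part of GC content in the members' ratios was not tested.

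**Figure D4:**
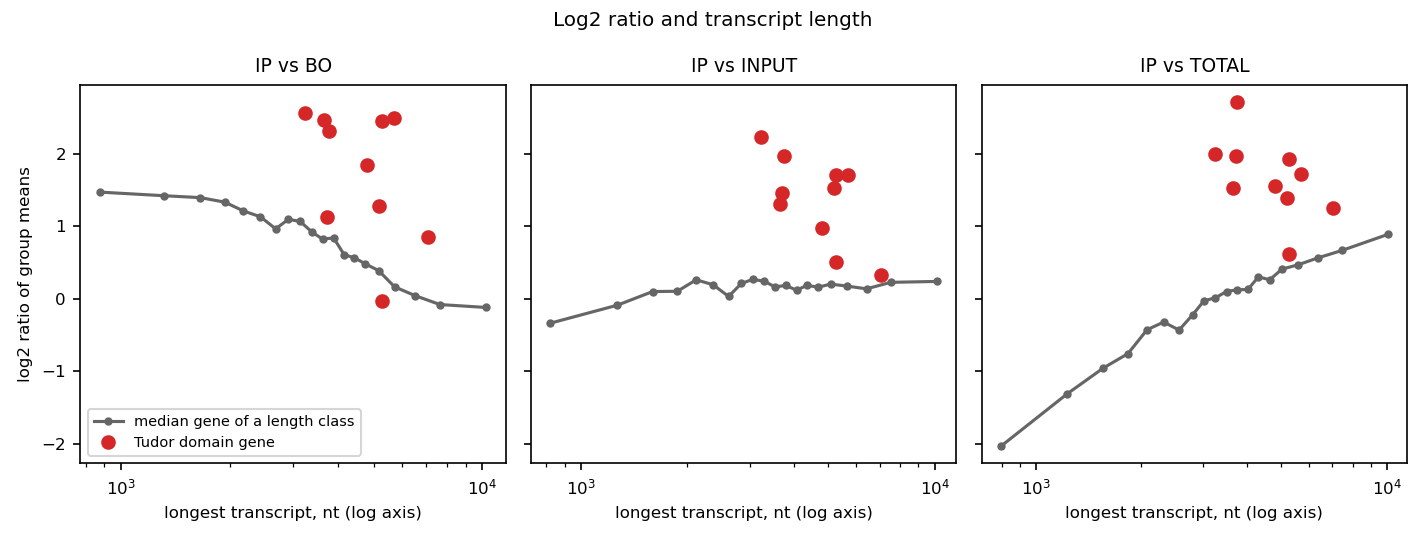
Log2 ratio of IP over BO, INPUT and TOTAL (vertical axis) against the length of the longest transcript in nt on a log axis. Red points are the 10 Tudor domain genes, and the grey line joins the median genes of 20 length classes of equal size. The line falls with length over BO, from 1.47 to -0.12, and climbs over TOTAL, from -2.03 to 0.89. Over INPUT it goes from -0.34 to 0.24 and is lowest in the shortest class.

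Genes with related functions were taken from lists of the family and the pathway, whose counts are to be read against the background shares of 20.5% of genes at least 2-fold higher and 14.6% lower in IP over INPUT, 20.4% and 26.2% over TOTAL, and 43.9% and 11.2% over BO, the comparison that was shifted as a whole. Of 19 other Tudor domain genes, which mostly read methylated histones or act in splicing, 6 were at least 2-fold higher in IP over INPUT, 10 over TOTAL and 10 over BO, and 1 was lower over BO. The 10 of 19 over BO were near the 43.9% of all genes. Their median log2 ratios were 0.62, 1.07 and 1.04. Lbr, which encodes the lamin B receptor of the nuclear envelope, had the highest ratio over INPUT in this list, with means of 1309 and 5388. Akap1, whose product anchors kinase A to mitochondria, had the lowest, with 1216 and 648 in IP.

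Among partners of the piRNA pathway, 14 of 15 listed genes that the tables hold passed the filter, and Mael did not. Over INPUT 10 of the 14 were at least 2-fold higher, over TOTAL 8 and over BO 10, with none lower, beside 20.5%, 20.4% and 43.9% of all genes higher, and the median log2 ratios were 1.48, 1.73 and 1.505. Ddx4, the germ cell helicase also called mouse vasa homologue, led the list over INPUT with means of 2845 and 13185 in IP. Piwil4, which encodes the fetal PIWI protein MIWI2, was lowest, with 55.7 in INPUT and 43.2 in IP. The enzymes that methylate arginines and a partner protein formed a list of 6. Of these 1 was at least 2-fold higher over INPUT, 1 over TOTAL, where 1 was lower, and 5 over BO. The counts over INPUT and TOTAL were near the background of 20.5% and 20.4%. Prmt5, which makes the symmetric dimethylarginine that Tudor domains bind, measured 1018 in INPUT and 2384 in IP, and Prmt1 632 and 467.

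Lists of marker genes of testis cell types were set beside the members in the same comparisons. Of 10 spermatocyte markers, 9 passed the filter, and each of the 9 was at least 2-fold higher in IP over each other group, with median log2 ratios of 2.48 over INPUT, 2.598 over TOTAL and 3.22 over BO. Ccna1, the marker below the filter, had means of 13.2 in TOTAL and 5.51 in IP, 8.011 in INPUT and 5.56 in IP, and 1.38 in BO and 4.23 in IP. The medians of the 9 lay above those of the Tudor domain genes. Sycp1, a protein of the synaptonemal complex, had means of 12256 in INPUT and 71902 in IP. Sycp3 had the highest ratio of the list over INPUT, with 3293 and 27536, and Sycp2 the lowest, with 11523 and 33295. The summed level of this list was 33993 in INPUT and 175376 in IP in the INPUT table, 29199 in TOTAL and 174398 in IP in the TOTAL table, and 15296 in BO and 133774 in IP in the BO table.

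Over INPUT and TOTAL, somatic markers went the other way. Of 8 Sertoli cell markers 5 were at least 2-fold lower in IP over INPUT, 6 over TOTAL and 3 over BO, and none was higher. Of 6 Leydig cell markers 5 were lower over INPUT and 6 over TOTAL. Over BO 2 were higher and 1 lower, beside 43.9% and 11.2% of all genes. Cldn11 of Sertoli cells was at 5980 in INPUT and 1372 in IP, and Wt1 at 1948 and 1631. Insl3 of Leydig cells was at 714 in INPUT and 89.6 in IP, and Cyp11a1 at 9565 and 5264. Their summed levels were 89853 in INPUT and 26020 in IP for the Sertoli list, and 43134 and 15427 for the Leydig list. Clu alone made up 78351 and 20843 of these Sertoli sums. In the TOTAL table the Sertoli list summed to 86081 in TOTAL and 25951 in IP, and the Leydig list to 78927 and 15393. In the BO table the Sertoli list summed to 26126 in BO and 19855 in IP, and the Leydig list to 6524 and 11773. The median log2 ratios over BO were -0.30 for the Sertoli list and 0.44 for the Leydig list. Both lay below the 0.81 of the median gene in this comparison, which was shifted as a whole.

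Spermatogonia markers, 7 of 8 above the filter, had 1 member at least 2-fold lower over INPUT and 2 over TOTAL with none higher, and 2 higher and 3 lower over BO. The counts of lower genes over INPUT and TOTAL were near the background of 14.6% and 26.2%. Over BO the background was 43.9% of genes higher and 11.2% lower. Over INPUT they ranged from Zbtb16 at 900 and 406 to Stra8 at 294 and 510.

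Spermatid markers other than Spaca1 were low, and the highest of their means was 39.3, in TOTAL. Of 8 spermatid markers 1 passed the filter in the BO and INPUT tables and 5 in the TOTAL table, 4 of these only through their TOTAL level, so no count is drawn from them. Prm1, the protamine of condensing spermatids, had means of 22.0 in TOTAL and 0.859 in IP in the TOTAL table and of 1.93 in INPUT and 0.839 in IP in the INPUT table, and is listed at 0 in BO. The summed level of the 8 spermatid markers was 376 in TOTAL and 250.1 in IP in the TOTAL table, 118 in INPUT and 251 in IP in the INPUT table, and 49.8 in BO and 192 in IP in the BO table. Spaca1, an acrosome gene, made up 231 and 233 of the first pair, 83.2 and 234 of the second, and 40.9 and 178 of the third. For the low level of most spermatid markers in TOTAL, fewer cells of that type and less RNA per cell cannot be told apart in bulk samples. Over INPUT the median log2 ratio of the Tudor domain genes of germ granules, 1.4975, lay between that of the spermatocyte markers and that of all genes, and the part that the cell type of origin has in their ratios was not tested.

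**Figure D5:**
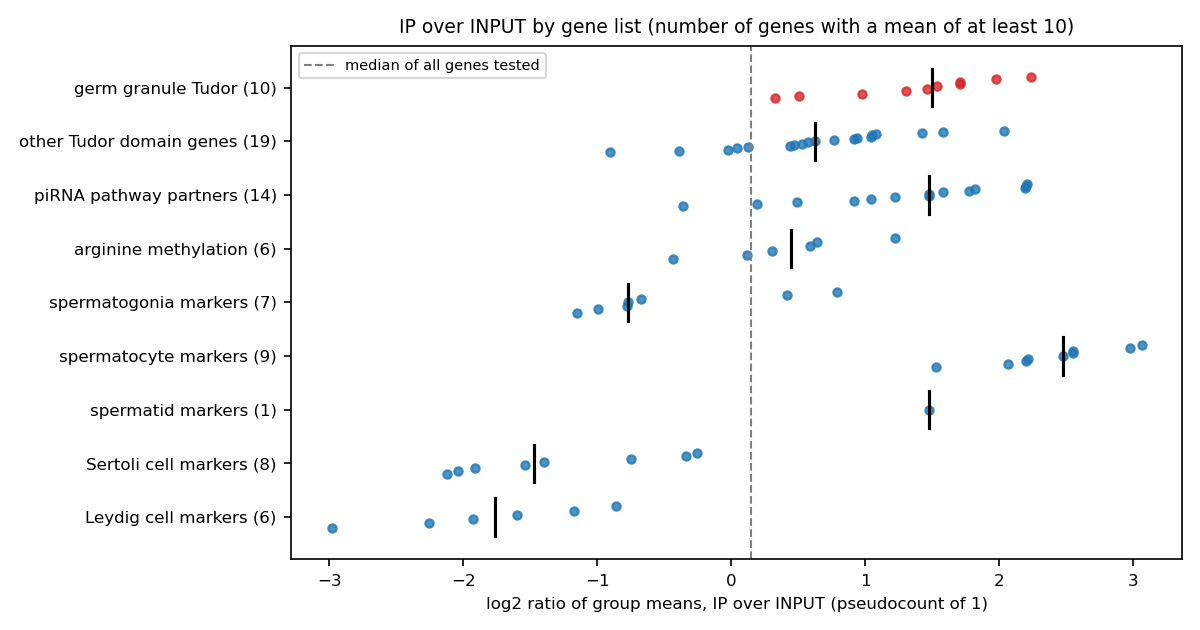
Log2 ratio of IP over INPUT for each gene above the filter on the mean, by list, with the number of genes in parentheses. Points are genes, black bars are list medians and the dashed line is the median of all genes at 0.15. The Tudor domain genes of germ granules (red) have a median of 1.4975, the piRNA pathway partners 1.48, the spermatocyte markers 2.48 and the Sertoli and Leydig lists -1.47 and -1.76.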

How the data were processed

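Reads were not realigned. The authors sequenced rRNA-depleted, stranded total RNA libraries, mapped reads to mm10 with STAR 2.6.0c and normalized counts with DESeq2 1.24.0; the annotation used for counting is not given in the sources used here. Each of the 3 deposited gene tables holds, as a signal, the authors' mean of normalized counts in IP and in 1 other group, beside the authors' own fold changes, standard errors and p-values, which were not used. Rows for unmapped, multimapping, ambiguous and featureless reads, 4 per table, held 22.1% to 38.6% of the summed means of genes and these rows and were left out. The tables were normalized separately: IP means in the INPUT table were 1.31 times those in the BO table (median gene). The deposited repeat signal per library was normalized by the upper quartile, and whole reads were recovered from its steps.

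Log2 ratios used a pseudocount of 1, so changes of low genes are understated. Background genes had a mean of at least 10, and no gene was tested. Named genes were the 10 members, the highest and lowest gene over INPUT of each other list, Mael, Sycp1 and Prm1; Oaz3, Ccna1 and Clu were added after values were seen, for the overlap with Tdrkh, as the spermatocyte marker below the filter and as the main part of the Sertoli sum. Members and lists were chosen with earlier results of these data known. Spocd1 was listed but is not analysed here, and Sgf29 was matched as Ccdc101. Lengths, GC content, exons and coding sequences came from GENCODE M21, with a length for 19888 of the 20981 genes. A planned comparison of proteins was made on coding sequences instead. Scripts were tested on simulated data (Python 3.11.15, pandas 2.3.3, numpy 2.4.6).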

Additional observations from a re-analysis of the deposited data

How the results depend on the processing

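Gene values were group means with no value per library, and the authors' statistics were not used, so none was tested, and the depth behind them is unknown. No paired analysis was possible because the gene tables give no value per library; for the same reason no replicate could be left out. Other scalings, pseudocounts of 0 and 10, filters of none and 100, and folds of 1.5 and 3 were tried, and length classes were added after the data were seen. Of 83 alternative values of medians and counts of members, 77 stayed within 1.5-fold. This tally includes the counts of members lower in IP, which were 0 in each setting. It also includes values under the other filters, which could not move because all members passed them. Over BO the median log2 ratio of the members, 2.08 as deposited, was 1.27 centred on the median gene, 1.41 scaled to the upper quartile and 1.42 relative to the length class. At 3-fold, 4 members were higher over INPUT and 5 over TOTAL, beside 8.13% and 8.82% of all genes. The median for BO over INPUT turned from -0.43 to 0.23 when each table was centred on its own median gene first, and to 0.12 relative to the median gene of that comparison. Of 170 alternative values of single members, 30 moved by over 1.5-fold and 7 changed sign. All of these came from other scalings, which shift all genes nearly alike, so they describe the scaling rather than single members. Those that changed sign are named in the report, and none of them had reached 2-fold. With groups scaled to the sum of gene means, the share of all genes at least 2-fold higher in IP fell to 9.14% over INPUT, where 5 members were higher, and to 9.83% over TOTAL, where 7 were. Loci of retrotransposons within the members were not placed, since no coordinates of loci were used here.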
